A study of Mus musculus with 32 samples.

Results

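The genes described are 9 receptors of leukocyte adhesion and homing: *Cd44*, the integrin chains *Itga4*, *Itga6*, *Itgal*, *Itgb1*, *Itgb2* and *Itgb7*, the selectin ligand *Selplg* and the tetraspanin *Cd9*. They are 9 of 19938 genes named on the array. Each was chosen by its symbol, not by its values, and each was read by 1 probeset, a set of probes summarized to 1 value per array.

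Hematopoietic cells stay in the bone marrow, or leave it for blood and tissue, by binding the stroma and vessel wall. Integrins are pairs of an alpha and a beta chain that switch between a resting and an active form. α4β1 (VLA-4) holds B-cell precursors to VCAM-1 and fibronectin of the stroma, α6β1 binds laminin, α4β7 leads lymphocytes to the gut, and αLβ2 (LFA-1) binds ICAM-1. CD44 binds hyaluronan of the marrow matrix, PSGL-1, encoded by *Selplg*, lets cells roll on selectins of the endothelium, and the tetraspanin CD9 gathers integrins in the membrane. PAX5 is the transcription factor that keeps cells in the B lineage, and MYD88 is the adaptor of Toll-like and interleukin-1 receptors.

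The values come from 32 mouse arrays in 7 groups. The leukemia experiment compared leukemic bone marrow of 6 Pax5+/- and 6 Pax5+/-;Myd88+/- mice with proB and preB cells sorted from WT marrow as B220low IgM- (4 samples), and the proB experiment compared proB cells of 4 genotypes, with 4 samples for WT, 4 for Pax5+/-, 4 for Pax5+/-;Myd88+/- and 4 for Pax5+/-;Myd88-/-. The labels give no treatment and state for every group that mice were housed under SPF conditions until 2 months of age and then in a conventional facility. For the proB cells the labels name B220+ bone marrow cells taken with magnetic beads from healthy mice, whereas the methods describe B220+ cells of mice aged 2 to 3 weeks grown with 5 ng/ml IL7 on ST2 stromal feeder cells. The methods list no culture for the Pax5+/-;Myd88-/- genotype, and the ages of the leukemic mice were not used here. Sorted and cultured cells thus differed in sort, culture and handling together.

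The medians of the arrays lay between 6.88 and 7.03 (log2), and replicates correlated at 0.9929 to 0.9958 in the sorted WT cells, 0.9906 to 0.9982 in the proB groups and 0.9666 to 0.9905 in the leukemias. All 13 measured genes of a B precursor list lay above 7 in every group. *Myd88* followed the genotypes in the proB groups, averaging 9.46 with both genes intact, 9.28 with Pax5+/- alone, then 8.64 once 1 *Myd88* allele was missing and 7.32 with none. *Xist*, which is transcribed from the inactive X chromosome, was at 5.32 to 6.11 in the WT and Pax5+/- proB arrays and at 12.29 to 12.52 in both Myd88-deficient proB groups. The sex of the mice and the *Myd88* genotype therefore cannot be told apart between these pairs of groups. WT and Pax5+/- cells share low *Xist*, and both Myd88-deficient groups share high *Xist*. The stromal list (19 genes measured) had 14 genes above 7 in proB WT, 11 in each of the other proB groups, 8 in sorted WT cells, 18 in Pax5+/- leukemias and 13 in Pax5+/-;Myd88+/- leukemias. In each proB group, replicates 1 and 3 had more of it than replicates 2 and 4, with array means of 7.54 and 7.57 against 7.36 and 7.29 in Pax5+/-;Myd88-/- cells and of 8.02 to 8.45 against 7.29 to 7.73 in the others. In such bulk samples, fewer cells of a type and less RNA per cell cannot be told apart.

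**Figure D1:**
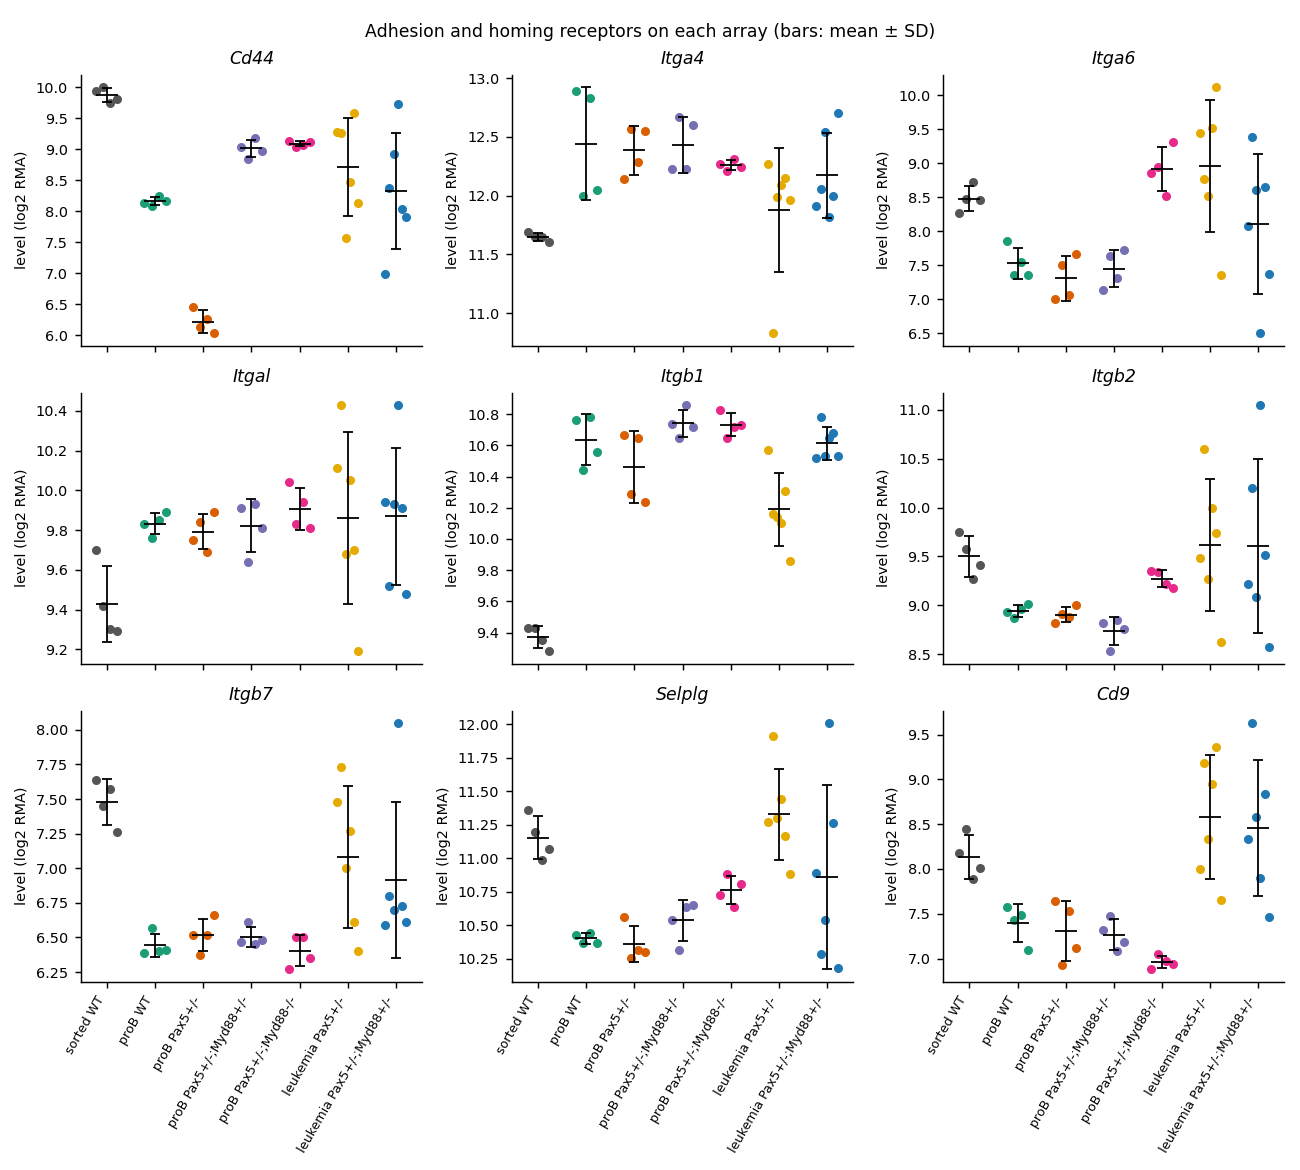
Log2 level of each of the 9 receptor genes on every array (points, 1 per array) by group, with the group mean as a bar. *Cd44* is lowest in the 4 Pax5+/- proB arrays (6.03 to 6.45), *Itgb1* is lowest in the sorted WT cells (9.28 to 9.43), and the leukemias spread more widely than the other groups for every gene but *Itga4* and *Itgb1*.

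*Cd44*, the hyaluronan receptor, differed most between the proB genotypes. It was lowest in Pax5+/- cells and higher again where a *Myd88* allele was missing as well, above even the WT level. The 4 WT arrays read 8.14, 8.09, 8.25 and 8.16, and the 4 Pax5+/- arrays read 6.45, 6.13, 6.26 and 6.03. The Pax5+/-;Myd88+/- arrays read 9.04, 8.85, 9.19 and 8.98, and the Pax5+/-;Myd88-/- arrays read 9.14, 9.04, 9.07 and 9.12. Every Pax5+/- array lay below every WT array, and every WT array below every array of both Myd88-deficient groups, while these last 2 groups overlapped. In Pax5+/- cells *Cd44* was thus 3.84-fold lower than in WT cells (log2 difference -1.94 ± 0.08 SE, 95% interval -2.12 to -1.77, limma adjusted p = 1.82e-10). Called means here an adjusted p under 0.05 together with a fold over 2, and *Cd44* was the 1 of the 9 receptor genes called in this comparison, against 1.08% of all probesets. Both groups have low *Xist*.

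Against the same Pax5+/- arrays, *Cd44* was 6.95-fold higher in Pax5+/-;Myd88+/- cells (2.80 ± 0.08, limma adjusted p = 1.64e-12). It was again the 1 receptor gene of 9 called, against 0.812% of all probesets. In Pax5+/-;Myd88-/- cells the difference was 7.34-fold (2.88 ± 0.08, limma adjusted p = 1.22e-12), and 2 of the 9 genes were called against 0.985% of all probesets. These 3 comparisons share the Pax5+/- arrays. Between both Myd88-deficient groups, which share high *Xist*, *Cd44* differed little (0.08, 95% interval -0.10 to 0.25, limma adjusted p = 0.587). Pax5+/- and WT cells have low *Xist*, so that sex and *Myd88* genotype cannot be told apart in the comparisons with them. Relative to WT, *Cd44* was 1.81-fold higher in Pax5+/-;Myd88+/- cells (0.86 ± 0.08, limma adjusted p = 2.46e-06) and 1.91-fold higher in Pax5+/-;Myd88-/- cells (0.93 ± 0.08, limma adjusted p = 1.05e-06), both short of the 2-fold threshold. With these fits on all 32 arrays, where the leukemias widen the shared spread, the adjusted p of these 2 differences was 0.45 and 0.148.

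The stretch before the start of *Cd44* is shown because this gene moved with the genotypes, and those of *Itga4* and *Itgb1* because these chains, the pair that forms VLA-4, were not called between any proB genotypes. The 250 bases upstream of each start are from RefSeq on GRCm38.p6, printed in the direction of transcription, for *Cd44* chr2:102901666-102901915 (minus strand), for *Itga4* chr2:79255176-79255425 (plus strand) and for *Itgb1* chr8:128685404-128685653 (plus strand). Capitals mark matches on either strand to GAGGAA (a core bound by ETS factors), TGTGGT (RUNX) and CANNTG (the E-box).

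Cd44: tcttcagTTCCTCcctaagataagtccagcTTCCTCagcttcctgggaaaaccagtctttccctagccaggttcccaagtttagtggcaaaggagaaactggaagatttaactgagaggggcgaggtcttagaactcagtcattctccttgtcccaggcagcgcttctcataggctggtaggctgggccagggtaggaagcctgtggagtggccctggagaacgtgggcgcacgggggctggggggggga

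Itga4: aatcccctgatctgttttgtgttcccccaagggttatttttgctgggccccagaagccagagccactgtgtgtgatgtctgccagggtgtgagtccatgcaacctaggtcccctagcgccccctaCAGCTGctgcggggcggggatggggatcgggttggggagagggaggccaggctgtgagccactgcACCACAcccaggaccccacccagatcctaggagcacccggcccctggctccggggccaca

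Itgb1: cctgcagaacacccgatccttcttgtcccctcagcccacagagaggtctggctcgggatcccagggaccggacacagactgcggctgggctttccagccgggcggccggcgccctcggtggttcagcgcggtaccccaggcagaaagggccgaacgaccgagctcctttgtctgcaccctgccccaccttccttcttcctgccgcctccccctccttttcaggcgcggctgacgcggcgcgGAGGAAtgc

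The *Cd44* stretch held 2 matches to GAGGAA, starting at -243 and -220 relative to the start, both on the opposite strand, and none to the other motifs marked. Of 32851 promoters of this length, 23.3% held GAGGAA. *Itga4* held TGTGGT at -60 (14.0% of promoters) and an E-box at -125 (66.2%), and *Itgb1* held GAGGAA at -9. GC content was 56.4% for *Cd44*, 64.0% for *Itga4* and 68.0% for *Itgb1*, against a median of 52.4%. The searched letters of AP-1 (TGANTCA) and the TATA box (TATAAA) were in none of the 5 receptor promoters that the table held, those of *Itgb7* and *Cd9* included. They were in 6.75% and 12.4% of all promoters. These are matches of letters in a window, not sites shown to be bound.

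*Itga6*, the laminin-binding alpha chain, stood apart in the cells without any *Myd88*. The Pax5+/-;Myd88-/- arrays read 8.86, 8.94, 8.52 and 9.31. The WT arrays read 7.85, 7.35, 7.54 and 7.36, the Pax5+/- arrays 7.0, 7.5, 7.06 and 7.66, and the Pax5+/-;Myd88+/- arrays 7.13, 7.64, 7.31 and 7.72. All 4 Pax5+/-;Myd88-/- arrays lay above the 12 arrays of the other proB groups, which overlapped each other. *Itga6* was 2.75-fold higher than in Pax5+/-;Myd88+/- cells (1.46 ± 0.18, 95% interval 1.07 to 1.85, limma adjusted p = 7.62e-05), which also have high *Xist*. It was the 1 receptor gene of 9 called there, against 0.808% of all probesets. The difference was 3.04-fold against Pax5+/- (1.60 ± 0.18, limma adjusted p = 2.16e-05) and 2.61-fold against WT cells (1.38 ± 0.18, limma adjusted p = 7.6e-05). Against WT, *Itga6* was the 1 gene called where 1.28% of all probesets were. These 3 comparisons share the Pax5+/-;Myd88-/- arrays. Fitted with all 32 arrays, the differences from Pax5+/-;Myd88+/- and from WT cells no longer passed (adjusted p of 0.0606 and 0.0608). The stromal list averaged 7.29 to 7.57 on the Pax5+/-;Myd88-/- arrays and 7.29 to 8.45 on the other proB arrays, and its part in the *Itga6* values was not tested.

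Smaller shifts in the same cells were seen for *Itgb2*, the beta chain of LFA-1, and for *Selplg*. *Itgb2* read 9.35, 9.34, 9.22 and 9.18 in Pax5+/-;Myd88-/- cells. The other proB arrays lay between 8.53 and 9.01, so that the groups did not overlap. *Itgb2* was 1.45-fold higher than in Pax5+/-;Myd88+/- (0.53 ± 0.07, limma adjusted p = 0.000105), 1.29-fold higher than in Pax5+/- (0.37 ± 0.07, limma adjusted p = 0.00251) and 1.26-fold higher than in WT cells (0.33 ± 0.07, limma adjusted p = 0.00429). *Selplg* read 10.73, 10.88, 10.64 and 10.81 in Pax5+/-;Myd88-/- cells, 10.43, 10.37, 10.44 and 10.37 in WT and 10.56, 10.26, 10.32 and 10.30 in Pax5+/- cells, with no overlap with either. It was 1.29-fold higher than in WT (0.36 ± 0.08, limma adjusted p = 0.00576), and the difference from Pax5+/- was 0.41 ± 0.08 (limma adjusted p = 0.00384). The Pax5+/-;Myd88+/- arrays of *Selplg* (10.54, 10.32, 10.64 and 10.65) overlapped them, and that difference did not pass (0.23, limma adjusted p = 0.0783). *Cd9* went the other way against WT. Its Pax5+/-;Myd88-/- arrays (6.88, 7.05, 6.97 and 6.94) lay below those of WT (7.58, 7.43, 7.49 and 7.09) and 1.35-fold lower on average (-0.44 ± 0.14, limma adjusted p = 0.045). Leaving out WT replicate 1, 2 or 3, Pax5+/-;Myd88+/- replicate 1 or 4, or any 1 of the Pax5+/-;Myd88-/- arrays brought the adjusted p of this *Cd9* difference to between 0.054 and 0.116. With all 32 arrays in 1 fit it was 0.529, that of the *Itgb2* differences was 0.449, 0.664 and 0.685 in the order above, and that of *Selplg* 0.457 against WT and 0.425 against Pax5+/-, so that none of them passed. None of these shifts reached 2-fold. At the adjusted p alone, 4 of the 9 genes passed against Pax5+/- (11.5% of all probesets), 2 against Pax5+/-;Myd88+/- (10.4%) and 5 against WT cells (15.7%).

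**Figure D2:**
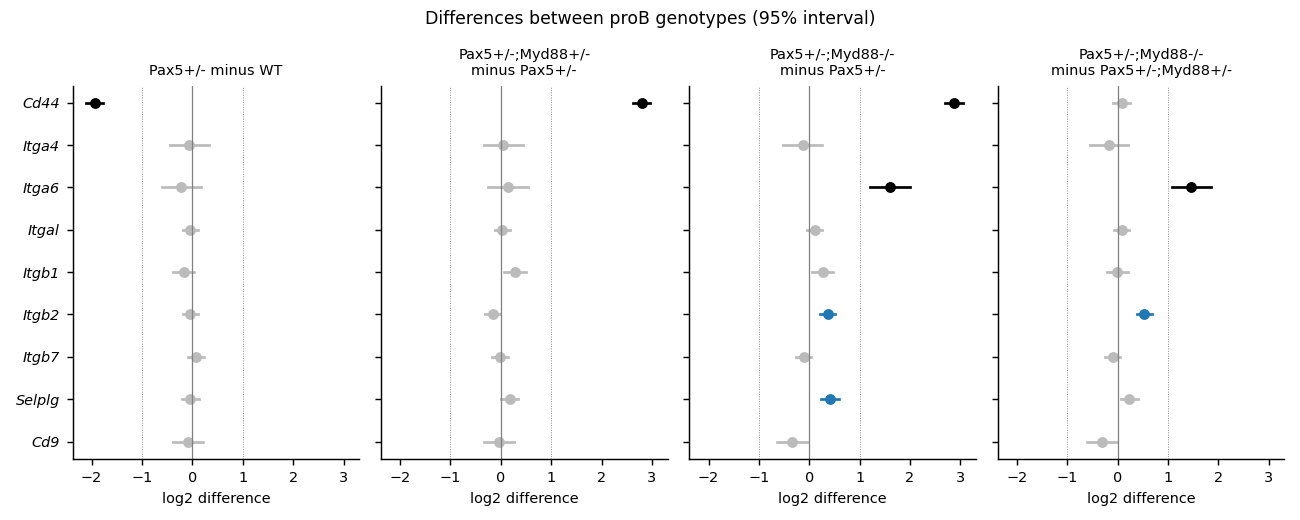
Log2 difference of each receptor gene between proB genotypes (points) with its 95% interval (lines) from limma, 1 panel per comparison. Black marks a called gene, blue an adjusted p under 0.05 with a fold of 2 or less, grey neither, and dotted lines stand at a 2-fold change. *Cd44* moves by -1.94, 2.80 and 2.88 in the comparisons that hold Pax5+/- cells, and *Itga6* by 1.60 and 1.46 in those that hold Pax5+/-;Myd88-/- cells.

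In the remaining proB comparisons few receptor genes passed a test. Between Pax5+/-;Myd88+/- and WT cells, 0 of the 9 genes were called (1.15% of all probesets). By limma, 2 had an unadjusted p under 0.05, *Cd44* and *Itgb2*, and the methods' t-test called 0 at its thresholds. For these 2 rules the share of all probesets is not given here. Between Pax5+/- and WT cells, the 8 genes other than *Cd44* had limma adjusted p-values of 0.439 or more. Of these, *Itga6* had the largest difference (-0.22, 95% interval -0.61 to 0.17). *Itgal*, the alpha chain of LFA-1, had proB group means between 9.79 and 9.90, and *Itgb7*, the beta chain of the gut-homing integrin, between 6.40 and 6.52. Their intervals lay within -0.26 and 0.26 in all 6 proB comparisons.

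*Itga4*, the alpha chain of VLA-4, varied more between the arrays of the WT, Pax5+/- and Pax5+/-;Myd88+/- groups than the proB group means did (12.26 to 12.44). The WT arrays read 12.89, 12, 12.83 and 12.05, those of Pax5+/- cells 12.14, 12.57, 12.29 and 12.55, those of Pax5+/-;Myd88+/- cells 12.23, 12.67, 12.23 and 12.60, and those of Pax5+/-;Myd88-/- cells 12.27, 12.21, 12.31 and 12.24. Replicates 1 and 3 exceeded replicates 2 and 4 by 0.83 on average in WT cells, whereas the same difference was -0.35 for Pax5+/-, -0.40 for Pax5+/-;Myd88+/- and 0.06 for Pax5+/-;Myd88-/- cells. The same replicates held more of the stromal list in every group, and the part of these cells in the *Itga4* values was not tested. *Itga6* split along the same replicates, by 0.34 in WT but -0.55, -0.46 and -0.44 in the other groups. *Itgb1*, the beta chain shared by VLA-4 and α6β1, was higher in replicates 1 and 3 by 0.27 (WT), 0.40 (Pax5+/-), 0.12 (Pax5+/-;Myd88+/-) and 0.08 (Pax5+/-;Myd88-/-). *Cd44* split by 0.28 at most, in Pax5+/- cells, which is small beside its difference of -1.94 from WT.

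**Figure D3:**
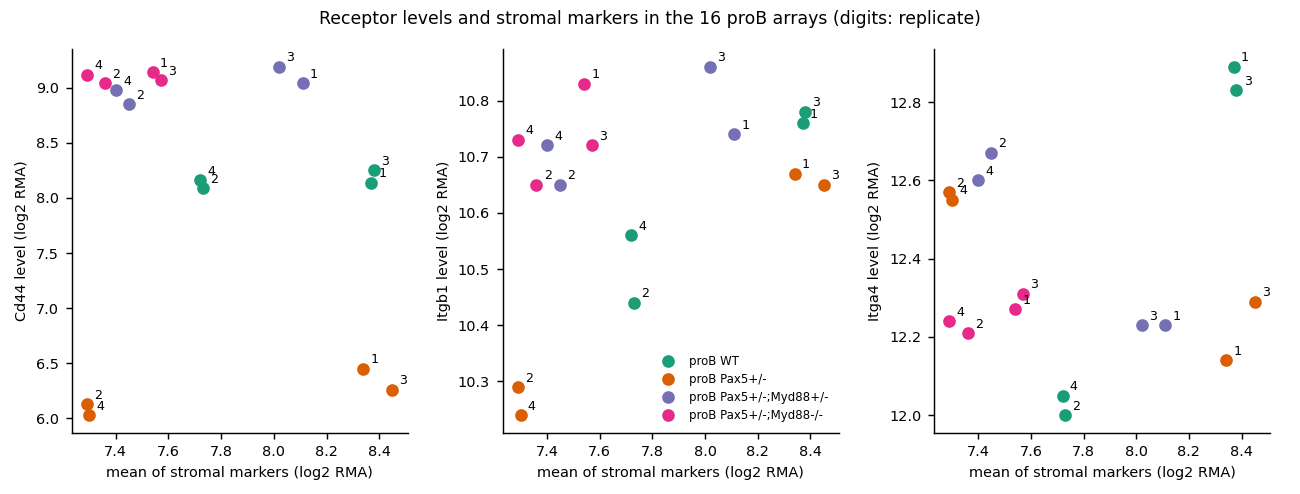
Log2 level of *Cd44*, *Itgb1* and *Itga4* (vertical axes) against the mean log2 level of the stromal list (horizontal axis) on the 16 proB arrays, coloured by genotype. Outside the Pax5+/-;Myd88-/- group, whose arrays lie between 7.29 and 7.57, the arrays fall into pairs at stromal means of 8.02 to 8.45 and 7.29 to 7.73, and the *Cd44* levels of Pax5+/- cells stay below 6.5 in both pairs.

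Between WT cells in culture and freshly sorted WT cells, the receptor genes differed most in *Cd44*, *Itgb1* and *Itgb7*. Sorted cells had more *Cd44* (9.94, 10.01, 9.75 and 9.82) than the cultured cells, whose highest array was 8.25, a 3.29-fold difference (-1.72 ± 0.38, limma adjusted p = 0.000476). *Itgb7* read 7.64, 7.45, 7.57 and 7.26 in sorted cells and 6.39, 6.57, 6.40 and 6.41 in culture, 2.05-fold lower (-1.04 ± 0.24, limma adjusted p = 0.0008). Without sorted WT replicate 1 it was -0.98 and no longer past 2-fold. *Itgb1* was the reverse, at 9.43, 9.43, 9.35 and 9.28 in sorted cells and 10.76, 10.44, 10.78 and 10.56 in culture (1.26 ± 0.11, 2.40-fold, limma adjusted p = 2.95e-10). No receptor gene overlapped between the groups, so that this is not particular to these 3. The share of all probesets without overlap is not given here. Of the 9 genes, 3 were called where 9.95% of all probesets were. *Itga4* (0.79, limma adjusted p = 0.00793) and *Selplg* (-0.75, limma adjusted p = 0.0134) passed at the adjusted p alone, which makes 5 genes against 42.5% of all probesets.

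Markers of other cells moved along. The sorted cells had 9 of 11 NK genes above 7 (array means 7.63 to 8.47, against 5.40 to 5.83 in the proB groups) and 9 of 10 genes of plasmacytoid dendritic cells (9.49 to 9.85 against 7.29 to 7.81). *Ncr1*, an NK receptor, averaged 9.44 and *Siglech*, of plasmacytoid dendritic cells, 10.96 in the sorted cells. Granulocyte genes had 12 of 14 above 7 in the sorted cells (6.93 to 9.22) and 1 of 14 in cultured WT cells (5.96 to 6.01), and erythroid genes averaged 7.92 to 8.39 against 6.18 to 6.28. The stromal list was higher in the cultured WT cells (7.72 to 8.38 against 6.55 to 6.64). The part of these cells in the differences of *Cd44*, *Itgb7*, *Selplg* and *Itgb1* was not tested. *Xist* was at 12.23 to 12.46 in the sorted and at 5.32 to 6.11 in the cultured WT arrays. Sex, culture, sort and handling therefore cannot be told apart.

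In the leukemias, *Itgb1* was higher and *Cd44* lower than in sorted WT cells. In Pax5+/-;Myd88+/- leukemias *Itgb1* read 10.52 at the lowest, 10.59 at the median and 10.78 at the highest of 6 samples, and in Pax5+/- leukemias 9.86, 10.15 and 10.57. All 12 leukemias lay above the 4 sorted WT samples (9.28 to 9.43), as did all 16 proB arrays. *Itgb1* was 2.37-fold higher in Pax5+/-;Myd88+/- leukemias (1.24 ± 0.10, limma adjusted p = 2.86e-07) and 1.76-fold higher in Pax5+/- leukemias (0.82 ± 0.10, limma adjusted p = 5.71e-05), the latter short of 2-fold and the 1 receptor gene of that comparison past the adjusted p (24.5% of all probesets). *Cd44* ran from 6.98 over a median of 8.20 to 9.73 in Pax5+/-;Myd88+/- leukemias and from 7.56 over 8.87 to 9.58 in Pax5+/- leukemias, every one below the lowest sorted WT sample (9.75). The difference passed for the former (-1.56 ± 0.46, 2.95-fold lower, limma adjusted p = 0.0168) and not for the latter (-1.17 ± 0.46, 95% interval -2.14 to -0.19, limma adjusted p = 0.0776). These comparisons share the sorted WT samples.

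Of the 9 receptor genes, 2 were called in Pax5+/-;Myd88+/- leukemias against sorted WT cells, where 7.63% of all probesets were. In Pax5+/- leukemias 0 were called (4.44% of all probesets), while 2 had an unadjusted p under 0.05 by limma, *Cd44* and *Itgb1*, and the methods' t-test called 1, *Cd44*, before adjustment. The share of all probesets under these last rules is not given here, so these counts are not read as a result about the receptor genes. The median difference of the 9 genes was 0.10 and 0.23, beside -0.01 and -0.03 over all probesets. With the replicate number as a block, the *Cd44* difference of the Pax5+/-;Myd88+/- leukemias was -1.5 with an adjusted p of 0.0558. *Itga6*, *Itgal*, *Itgb2*, *Itgb7*, *Selplg* and *Cd9* had limma adjusted p-values of 0.14 or more against sorted WT cells in both leukemias, and *Itga4* of 0.116 and 0.51. The leukemias were bulk bone marrow, and their lists of other cells moved too. Platelet genes averaged 8.28 to 10.57 on the arrays of Pax5+/- leukemias and 6.58 to 9.60 in Pax5+/-;Myd88+/- leukemias, against 6.65 to 6.80 in sorted WT cells. Stromal genes averaged 7.88 to 8.94 and 7.06 to 9.06, against 6.55 to 6.64. Of 14 monocyte and macrophage genes, 7 were called higher in Pax5+/- and 4 in Pax5+/-;Myd88+/- leukemias. Other lists ran with the lower *Cd44*: 8 of 11 NK genes were called lower in each leukemia (median differences of -2.27 in Pax5+/- and -2.01 in Pax5+/-;Myd88+/-), as were 4 and 3 of 6 erythroid and 2 and 5 of 13 B precursor genes (medians of -1.44 and -1.56 for the latter list). Of the 14 granulocyte genes 0 were called in either, with array means of 6.81 to 11.31 and 6.34 to 9.63 against 6.93 to 9.22. The part of these cells in the *Itgb1* and *Cd44* differences was not tested. *Xist* was at 12.23 to 12.46 in the sorted WT samples. It was at 9.72 in Pax5+/- leukemia 1 and at 5.44 to 5.74 in the other Pax5+/- leukemias. In Pax5+/-;Myd88+/- leukemias 2, 4 and 6 it was at 12.8, 12.49 and 12.68, and in 1, 3 and 5 at 5.39, 5.57 and 6.04. *Xist* thus also differed between these groups, and the part of sex was not tested.

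Between the leukemias of both genotypes, *Itgb1* was the 1 receptor gene that passed at the adjusted p, as did 34.4% of all probesets. It was 1.34-fold higher in Pax5+/-;Myd88+/- leukemias (0.43 ± 0.09, 95% interval 0.23 to 0.62, limma adjusted p = 0.00248), and the groups overlapped because 1 Pax5+/- leukemia reached 10.57. No receptor gene was called (0 of 9, against 3.82% of all probesets). By limma, *Itgb1* was the 1 gene with an unadjusted p under 0.05, and the methods' t-test called 0. Shares of all probesets under these rules are not given here. *Cd44* differed by -0.39 (95% interval -1.27 to 0.48, limma adjusted p = 0.487), *Itga6* by -0.86 (-1.86 to 0.15, limma adjusted p = 0.175) and *Selplg* by -0.47 (-1.02 to 0.09, limma adjusted p = 0.18). These intervals are wide. High *Xist* was also more frequent in the Pax5+/-;Myd88+/- leukemias, and the part of sex was not tested. Without Pax5+/- leukemia 6, the *Itga6* difference was -1.18 with an adjusted p of 0.045, which made it a call.

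**Figure D4:**
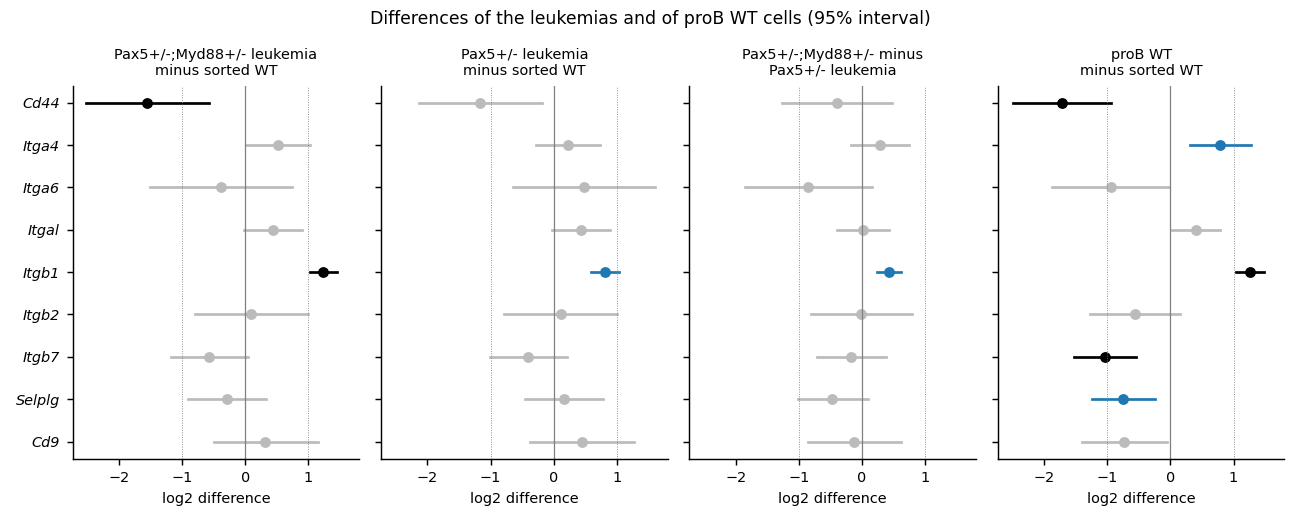
Log2 difference of each receptor gene (points) with its 95% interval (lines) from limma, for both leukemias against sorted WT cells, between the leukemias, and for cultured proB WT against sorted WT cells. Colours are as in the plot of proB differences. *Itgb1* lies above 0 in all 4 panels (0.43 to 1.26), and *Cd44* lies below 0 in all of them, with an interval that includes 0 between the leukemias.

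The absence of a *Myd88* allele on the Pax5+/- background thus went with a *Cd44* difference of 2.80 in the proB cells and of -0.39 in the leukemias. Tested directly over all 32 arrays, these differed by -3.19 (± 0.49 SE, 95% interval -4.19 to -2.19, limma adjusted p = 1.84e-05). *Cd44* was the 1 receptor gene of 9 called in this contrast, against 4.56% of all probesets. The contrast also sets cultured cells against bulk marrow, and in the proB cells the *Myd88* genotype goes with *Xist*. For *Selplg* it was -0.64 (limma adjusted p = 0.145) and for *Itga6* -1.0 (limma adjusted p = 0.229).

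Leukemias of 1 genotype differed from each other more than the sorted and cultured samples did. The pooled SD within groups was 0.87 for *Cd44* in the leukemias and 0.12 in the 20 other arrays, 1.00 against 0.27 for *Itga6*, 0.79 against 0.13 for *Itgb2*, 0.72 against 0.22 for *Cd9*, and 0.54 against 0.13 for *Selplg*. For *Itgb1* it was 0.18 against 0.14 and for *Itga4* 0.45 against 0.26. Pax5+/-;Myd88+/- leukemia 4 was the highest of its group in *Cd44* (9.73), *Itgal* (10.43), *Itgb2* (11.05), *Itgb7* (8.05) and *Selplg* (12.01). It was the lowest in *Itga6* (6.5) and *Itga4* (11.82). Pax5+/- leukemia 2 was the highest of its group in *Itgal* (10.43), *Itgb2* (10.60), *Itgb7* (7.73) and *Selplg* (11.91) and the lowest in *Itga4* (10.83). That sample also had little *Pax5* (7.69, against 10.98 to 12.29 in the other Pax5+/- leukemias).

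Some receptor levels rose with lists of other cells among the 12 leukemias. Relations were computed on differences from the mean of the genotype, for 135 pairs of a receptor gene with a marker list, with *Pax5* or with another receptor gene, and 2 of them passed adjustment by both coefficients. *Selplg* rose with the genes of plasmacytoid dendritic cells (r = 0.96, permutation p = 6e-05, adjusted 0.0081; rho = 0.97, permutation p = 8e-05, adjusted 0.0108), with r = 0.94 without the 2 farthest samples and 0.90 and 1.00 within the genotypes. Leukemias 4 and 2 named above had the most of these genes (10.67 and 10.22). *Itgb2* rose with the T-cell list (r = 0.92, permutation p = 0.00013, adjusted 0.00877; rho = 0.92, permutation p = 0.00035, adjusted 0.0236; r = 0.81 without the 2 farthest). That list had 4 of 10 genes above 7 in the leukemias of each genotype. It holds *Cd4*, which was highest in the same 2 leukemias (11.28 and 10.56) and which plasmacytoid dendritic cells also make. *Itgb2* and the plasmacytoid dendritic list had r = 0.71 (permutation p = 0.0198, adjusted 0.0894) and did not pass. Their rho was 0.57 (permutation p = 0.09, adjusted 0.243), and r was 0.14 without the 2 farthest samples. Which cells carried the relation of *Itgb2* with the T-cell list was not tested. With the monocyte and macrophage list *Itgb2* had r = 0.73 (permutation p = 0.0138, adjusted 0.0777) and rho = 0.77 (permutation p = 0.0108, adjusted 0.139), with r = 0.57 without the 2 farthest, and did not pass. *Cd9*, which platelets carry in large amount, rose with the platelet list (r = 0.84, permutation p = 0.00156, adjusted 0.0263; rho = 0.80, permutation p = 0.00283, adjusted 0.0764; r = 0.69 without the 2 farthest). *Itgb1* rose with the stromal list (r = 0.69, permutation p = 0.00059, adjusted 0.0129; rho = 0.66, permutation p = 0.0181, adjusted 0.163; r = 0.54 without the 2 farthest), with r = 0.94 and 0.81 within the genotypes. It also rose with the monocyte and macrophage list (r = 0.61, permutation p = 0.00042, adjusted 0.0121; rho = 0.73, permutation p = 0.00618, adjusted 0.11; r = 0.66 without the 2 farthest), with r = 0.92 and 0.88 within the genotypes. For these 2 relations and that of *Cd9* the adjusted p passed by r and not by rho. The same held for *Itgal* with the plasmacytoid dendritic list (r = 0.81, adjusted permutation p = 0.0121) and *Itga4* with the T-cell list (-0.72, 0.0304). Among receptor pairs it held for *Itgal* with *Selplg* (0.84, 0.0103) and with *Itgb7* (0.86, 0.0129). It also held for *Itgb7* with *Selplg* (0.79, 0.0304) and with *Itgb2* (0.81, 0.034). *Itga4* and *Pax5* had r = 0.83 (permutation p = 0.0183, adjusted 0.0883) and rho = 0.62 (permutation p = 0.045, adjusted 0.187), and did not pass. Without the 2 farthest samples r was weaker, at 0.54. Within the genotypes, with these samples kept, it was 0.88 (Pax5+/-) and 0.72 (Pax5+/-;Myd88+/-). *Cd44* had no relation that passed, with r = 0.00 for the stromal and 0.63 for the granulocyte list (permutation p = 0.998 and 0.0335, adjusted 0.998 and 0.116; rho = 0.01 and 0.58, permutation p = 0.977 and 0.0494, adjusted 0.984 and 0.187; r = -0.21 and 0.45 without the 2 farthest). Other cells and expression in the leukemic cells themselves cannot be told apart in these samples.

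**Figure D5:**
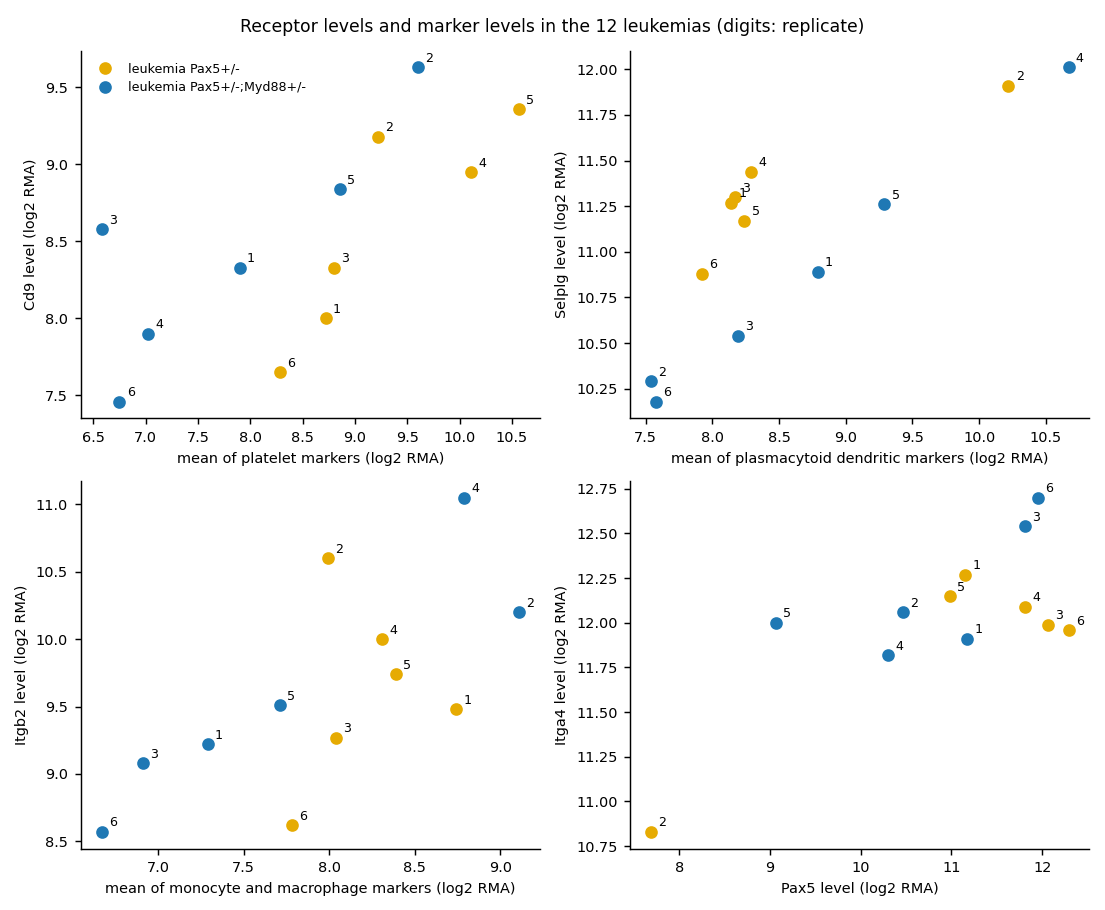
Log2 level of a receptor gene (vertical axes) against the mean log2 level of a marker list or of *Pax5* (horizontal axes) in the 12 leukemias, coloured by genotype: *Cd9* with platelet, *Selplg* with plasmacytoid dendritic and *Itgb2* with monocyte and macrophage genes, and *Itga4* with *Pax5*. *Selplg* climbs with its list over the whole range, and the *Itga4* panel has 1 sample far to the left, at a *Pax5* level of 7.69.

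Over all 7 groups, *Cd44* was highest in sorted WT cells (9.88 ± 0.12 SD, n = 4), followed by Pax5+/-;Myd88-/- proB (9.09 ± 0.05), Pax5+/-;Myd88+/- proB (9.02 ± 0.14), Pax5+/- leukemias (8.72 ± 0.79, n = 6), Pax5+/-;Myd88+/- leukemias (8.32 ± 0.94), WT proB (8.16 ± 0.07) and Pax5+/- proB cells (6.22 ± 0.18). The first and the last of these were apart from their neighbour, and the others overlapped the next. *Itga6* was highest in Pax5+/- leukemias (8.96 ± 0.97) and Pax5+/-;Myd88-/- proB cells (8.91 ± 0.32), which overlapped, and lowest in Pax5+/- proB cells (7.30 ± 0.33). *Cd9* was highest in the leukemias, at 8.58 ± 0.69 in Pax5+/- and 8.46 ± 0.76 in Pax5+/-;Myd88+/-, with sorted WT cells at 8.13 ± 0.24 overlapping both. The group means of *Itga4* spanned 0.79 and those of *Itgal* 0.47, the narrowest ranges of the 9 genes, while those of *Cd44* spanned 3.66.

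The genes whose levels ran most like each receptor over the 32 arrays were taken from the 2849 other genes with an SD of at least 0.5, as a description. The arrays share their groups and their admixture of cells. For *Cd44* they were *Igf2r* (r = 0.832), *Atp1b1* (0.716) and *Ly6e* (0.713). For *Itga6* they were *Pde5a* (0.838), *Serpinb6a* (0.76) and *Rcbtb2* (0.754), and for *Itga4* they were *Pde3b* (0.811), *Slc43a1* (0.788) and *Mgat5* (0.784). *Itgal* ran with *S100a4* (0.778), *Slc39a14* (0.773) and *Abcc1* (0.738). *Itgb1* ran with *Gas5* (0.917), *Snord87* (0.915) and *Rps29* (0.906), *Itgb2* with *Cd300lf* (0.898), *Fgr* (0.898) and *Ctsb* (0.866), and *Itgb7* with *Rnase6* (0.924), *Stx7* (0.923) and *Carmil1* (0.919). *Selplg* had *Pld4* (0.93), *Tubgcp5* (0.885) and *Nucb2* (0.866), and *Cd9* had *Parvb* (0.929), *Tnfrsf1a* (0.906) and *Arhgap6* (0.897).

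Around the receptors, 174 of 182 genes in 7 lists of other integrin chains, integrin activation, ligands, PSGL-1 glycosylation, CD44 splicing and shedding, tetraspanins and other adhesion molecules were measured. In proB cells, 7 were called higher and 1 lower in Pax5+/- than in WT cells (4.6% of the 174, against 1.08% of all probesets). The other integrin alpha chains *Itga9* (2.22, limma adjusted p = 1.02e-05) and *Itga5*, of the fibronectin receptor (1.91, limma adjusted p = 1.36e-08), were higher, as was the adhesion receptor *Adgre5* (CD97; 2.93, limma adjusted p = 1.64e-10). The tetraspanin *Tspan2* differed most (3.45, limma adjusted p = 4.08e-08), and *Cd93* (1.21), the actin linker *Actn1* (1.09) and *Rapgef3*, an activator of RAP1 (1.0), were higher too. *Cd48* was lower (-1.89, limma adjusted p = 1.46e-05). *Tspan2* and *Itga5* were also called against WT in Pax5+/-;Myd88+/- cells (2.79, limma adjusted p = 3.69e-07, and 2.01, limma adjusted p = 7.77e-09) and in Pax5+/-;Myd88-/- cells (2.63, limma adjusted p = 9.8e-07, and 1.9, limma adjusted p = 1.35e-08), and neither was called between Pax5+/- and the Myd88-deficient groups. *Cd48* and *Adgre5* had the opposite sign in Pax5+/-;Myd88+/- against Pax5+/- cells (*Cd48* 2.38, limma adjusted p = 1.18e-06, and *Adgre5* -3.17, limma adjusted p = 4.59e-11), a comparison that shares the Pax5+/- arrays. There 2 of the 174 were called higher and 1 lower (1.72%, against 0.812% of all probesets). *Itga9* was lower again in Pax5+/-;Myd88-/- than in Pax5+/- cells (-2.31, limma adjusted p = 6.94e-06). In that comparison 1 of the 174 was called higher and 3 lower (2.3%, against 0.985% of all probesets).

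In the leukemias, 6 of the 174 were called higher and 11 lower in Pax5+/-;Myd88+/- samples than in sorted WT cells (9.77%, against 7.63% of all probesets), and 20 higher and 8 lower in Pax5+/- samples (16.1%, against 4.44%). *Vcam1*, the stromal ligand of VLA-4, was higher in both (2.12, limma adjusted p = 0.012, and 3.75, limma adjusted p = 0.000326). It was lower in Pax5+/-;Myd88+/- than in Pax5+/- leukemias (-1.64, limma adjusted p = 0.0255), where 2 genes were called higher and 8 lower (5.75%, against 3.82% of all probesets). Leukemias with more *Vcam1* came from the group whose stromal and endothelial lists were higher, with 18 of 19 and 8 of 10 genes above 7 against 13 and 4. The monocyte and macrophage list, which holds *Vcam1* itself, had 8 of 14 genes above 7 against 9. Of its genes 3 were called lower and 0 higher in Pax5+/-;Myd88+/- than in Pax5+/- leukemias. The part of these cells was not tested. *C1galt1*, which makes the core O-glycan that PSGL-1 needs to bind selectins, was lower than in sorted WT cells in both Pax5+/-;Myd88+/- (-1.92, limma adjusted p = 1.02e-05) and Pax5+/- leukemias (-1.45, limma adjusted p = 0.000317). The adhesion molecule *Cd2* was lower in both as well (-3.81, limma adjusted p = 2.17e-07, and -3.85, limma adjusted p = 8.31e-07). Both genes were also lower in every proB group than in sorted WT cells. *Cd2* averaged 10.74 in sorted WT cells, 6.43 to 6.48 in the proB groups, and 6.93 and 6.88 in the leukemias. *C1galt1* averaged 12.03, then 10.60 to 10.88, and 10.11 and 10.57. The part of the other cells among the sorted ones was not tested. *Itga1*, an alpha chain that binds collagen, was higher in both leukemias than in sorted WT cells (2.34, limma adjusted p = 0.000484, and 2.16, limma adjusted p = 0.00166). *Tpst1*, which sulfates PSGL-1, was lower in Pax5+/-;Myd88+/- leukemias than in both sorted WT cells (-1.76) and Pax5+/- leukemias (-1.73, limma adjusted p = 0.00409). Between cultured and sorted WT cells, 5 of the 174 were called higher and 29 lower (19.5%, against 9.95% of all probesets), among the higher *Thbs1* (3.50) and *Fn1* (2.58), a matrix ligand that stromal cells make in quantity.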

How the data were processed

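RNA of 32 samples was read on Affymetrix mouse gene 1.0 arrays. The deposited log2 values are the authors' RMA summaries per gene from Transcriptome Analysis Console 4.0.1 ( background correction, quantile normalization and median polish, genome mm10), which evens out global shifts and compresses differences of dim genes. Whether all arrays were normalized together is not given in the sources used here. Groups and replicate numbers came from the labels, which call every array a biological replicate. Where these are not separate mice or cultures, p-values measure the spread between samples alone, which may be technical. Arrays give no read depth, so their number limits the precision, and levels of different probesets were not compared.

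The 9 genes, the gene lists and the marker lists were chosen with earlier results of these data known. All 9 genes are named. From a list, 2 called genes in each direction, those that changed most in a comparison, could be named, and the text names part of these, chosen with their values seen. Of 28944 probesets, 21789 name 1 gene, 1621 several and 5534 none. A gene took the probeset with the highest mean. Of 124 marker genes 114 were measured. All probesets were tested in limma 3.58.1 (R 4.3.3; Benjamini-Hochberg over all of them), with the 16 arrays of an experiment in 1 fit, or all 32 where a contrast crosses experiments. Called means an adjusted p under 0.05 and a fold over 2. Relations among leukemias used 100000 permutations within genotype, 2-sided, adjusted over 135 relations.

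Alternatives were other sets of arrays in the fit, other scalings, leaving out probesets with a mean under 6, the replicate block, the methods' t-test and each array left out. Added after seeing the data were a block for odd and even replicates and fits without Pax5+/-;Myd88+/- leukemia 4 and Pax5+/- leukemia 2. Within an experiment, same-numbered samples correlated in their deviations at -0.272 to 0.409. All 4 pairs were over 0.1 for proB WT with Pax5+/-;Myd88-/- cells (0.117 to 0.216), the level set for taking numbers as pairs, and for no other 2 groups of an experiment. The blocked fit left every call of that comparison as it was. Promoters are RefSeq's (GRCm38.p6), for 5 of the 9 genes.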

Additional observations from a re-analysis of the deposited data

Results flagged for a closer look

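*Cd44* differed between experiments: the difference that went with lacking a *Myd88* allele in the leukemias minus that in the proB cells was -3.19 (log2), by a limma contrast over all arrays. In the proB cells this genotype goes with *Xist*, and the contrast sets cultured cells against bulk marrow.

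Of 63 tests of a gene in a group, 3 found a sample far from the others of its group, where chance gives about 1 in 20. *Itga4* was 10.83 in Pax5+/- leukemia 2, below the next sample at 11.96. *Itgb7* was 8.05 in Pax5+/-;Myd88+/- leukemia 4, the highest of its group, and 6.57 in proB WT replicate 2, where the next array was at 6.41.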

How the results depend on the processing

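Over all alternatives, 275 recomputed counts of called genes lay within 1.5 times the reported count and 10 did not. Of the single differences, 2554 stayed on their side of the threshold, 7 became called, 4 lost the call and 0 called ones reversed. Some differences that were not called changed sign. That of *Itgb2* in Pax5+/-;Myd88+/- leukemias against sorted WT cells, for example, ranged from -0.19 to 0.35. With all 32 arrays in 1 fit, 1 gene (*Cd44*, lower) was called in Pax5+/- leukemias against sorted WT cells, and 0 in Pax5+/-;Myd88-/- proB cells against either Pax5+/-;Myd88+/- or WT cells. With the groups compared alone in the fit, the methods' t-test before adjustment, or without leukemias 4 and 2 named above, 1 gene was called in Pax5+/- leukemias against sorted WT cells, again *Cd44* (adjusted p = 0.0361 by limma in the last case). With the replicate block, 1 was called in Pax5+/-;Myd88+/- leukemias against sorted WT cells, and the block changed no other call. Leaving out 1 array at a time gave 0 to 1 calls for Pax5+/- leukemias against sorted WT cells (1 without Pax5+/-;Myd88+/- leukemia 1 or 4) and 0 to 1 between the leukemias (1, *Itga6*, without Pax5+/- leukemia 6). The causes were not tested. The *Cd44* differences of Pax5+/- proB cells ranged from -2.05 to -1.88 against WT and of Pax5+/-;Myd88+/- from 2.74 to 2.90 against Pax5+/-, over all alternatives. In the proB WT and Pax5+/- groups, replicates 1 and 3, and 2 and 4, correlated more closely than other pairs, and averaging them changed no count of called genes. The mean of all probesets of a gene gave no other value, since each gene has 1.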
